A study of Mus musculus with 9 samples.

Results

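Mincle (*Clec4e*) and 7 other genes of innate pattern recognition were followed in epididymal adipose tissue of mice before and during weight loss. The 8 genes were chosen by name: the C-type lectin receptors *Clec4e*, *Clec4d*, *Clec4n*, *Clec7a* and *Clec5a*, the signalling adaptor *Card9*, and the Toll-like receptors *Tlr2* and *Tlr4*. All 8 were among the 56748 genes of the count table, and 8 of 8 were among the 18510 genes that reached 0.5 CPM (counts scaled to a common library size) in at least 1 library. Male C57BL/6J wild-type mice, 8 weeks old at the start, received a high-fat diet (HFD) for 8 weeks (Pre) and then a standard diet (SD) for 1 week (WL1) or 2 weeks (WL2). RNA of whole tissue was sequenced in 3 libraries per phase, with 16434450 to 22729072 counts per library. Every library came from mice that had been fed HFD, so no lean group enters these comparisons. No group kept on HFD over the same weeks was among the libraries. The change of diet therefore cannot be told apart from the added 1 or 2 weeks of age. The labels do not say whether the libraries of a phase came from separate animals, and p-values therefore measure the spread between these libraries.

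Pattern recognition receptors sit on macrophages, dendritic cells and neutrophils and bind molecules of microbes or of damaged cells. Mincle, its close relative MCL (*Clec4d*, also called Dectin-3) and Dectin-2 (*Clec4n*) signal through the Fc receptor gamma chain (*Fcer1g*). Dectin-1 (*Clec7a*), the receptor for fungal beta-glucan, carries its own signalling motif, and MDL-1 (*Clec5a*) pairs with DAP12 (*Tyrobp*). These receptors recruit the kinase *Syk*, which acts on NF-kB through the complex of *Card9*, *Bcl10* and *Malt1*. *Tlr2* pairs with *Tlr1* or *Tlr6* to bind lipopeptides. *Tlr4* binds lipopolysaccharide together with *Ly96*, *Cd14* and the carrier protein *Lbp*, and both Toll-like receptors signal through *Myd88*. Mincle is known in obese adipose tissue from macrophages that surround dying adipocytes.

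The genes for Dectin-2, MCL and Mincle are neighbours on chromosome 6. In the coordinates of the authors' table, which are given here without a genome build, *Clec4n* spans 123206802 to 123223980 on the plus strand, *Clec4d* 123239070 to 123252224 on the plus strand and *Clec4e* 123258748 to 123266829 on the minus strand. *Clec4d* begins 15090 bases after the end of *Clec4n*, and *Clec4e* begins 6524 bases after the end of *Clec4d*. *Clec5a* (40551828 to 40562755) and *Clec7a* (129438554 to 129449742) lie elsewhere on chromosome 6, both on the minus strand. *Card9* is on chromosome 2 (26242188 to 26250930, minus strand), *Tlr2* on chromosome 3 (83743579 to 83749074, minus strand) and *Tlr4* on chromosome 4 (66745821 to 66848521, plus strand). *Card9* overlaps the long non-coding RNA gene *Gm13562* on the opposite strand, which had 104 counts over the 9 libraries. *Tlr4* overlaps an unnamed long non-coding RNA gene on its own strand, which had 2584 counts. Whether strand was used in the counting could not be learned from the sources at hand, so reads in these overlaps are uncertain in their origin.

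Promoter sequences from RefSeq (GRCm38.p6) were found for 6 of the 8 genes, and not for *Clec4n* and *Tlr4*. The 250 bases before the start site were searched on both strands for 4 motifs. The core of PU.1, the myeloid transcription factor, was searched as GAGGAA, which reads TTCCTC from the other strand. It stood in 4 of the 6 windows, those of *Clec4e*, *Clec4d*, *Clec7a* and *Clec5a*, against 23.3% of 32817 promoters of the same length. In *Clec4e* it stood 50 and 117 bases before the start, in *Clec4d* 234, in *Clec7a* 90 and in *Clec5a* 49 and 75. An NF-kB motif of GGG and CC with any 5 bases between them was in the window of *Tlr2* alone and in 45.8% of all promoters. The C/EBP motif TTNNGCAA was in that of *Clec4e* alone and in 9.57% of all promoters, and the AP-1 motif TGANTCA was in 0 of the 6 and in 6.75% of all promoters. A match describes letters in the window and not a bound site. The 4 windows with the PU.1 core, all of C-type lectin receptors, are shown, and capitals mark the core. They are chr6:123289872-123290121 (minus strand) for *Clec4e*, chr6:123261857-123262106 (plus strand) for *Clec4d*, chr6:129472780-129473029 (minus strand) for *Clec7a* and chr6:40585806-40586055 (minus strand) for *Clec5a*.
*Clec4e*: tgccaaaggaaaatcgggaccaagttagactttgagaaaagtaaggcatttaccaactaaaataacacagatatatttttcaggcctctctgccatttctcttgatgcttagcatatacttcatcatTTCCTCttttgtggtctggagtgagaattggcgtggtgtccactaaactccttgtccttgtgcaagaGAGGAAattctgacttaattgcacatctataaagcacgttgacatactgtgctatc
*Clec4d*: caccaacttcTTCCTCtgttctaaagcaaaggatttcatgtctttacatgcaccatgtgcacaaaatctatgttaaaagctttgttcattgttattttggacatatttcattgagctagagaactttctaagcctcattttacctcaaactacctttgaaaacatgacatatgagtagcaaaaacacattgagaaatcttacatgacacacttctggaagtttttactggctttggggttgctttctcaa
*Clec7a*: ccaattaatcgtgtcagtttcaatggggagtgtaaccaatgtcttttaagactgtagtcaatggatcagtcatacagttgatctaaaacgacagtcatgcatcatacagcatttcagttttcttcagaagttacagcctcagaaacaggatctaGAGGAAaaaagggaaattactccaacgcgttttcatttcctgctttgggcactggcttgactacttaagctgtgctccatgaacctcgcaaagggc
*Clec5a*: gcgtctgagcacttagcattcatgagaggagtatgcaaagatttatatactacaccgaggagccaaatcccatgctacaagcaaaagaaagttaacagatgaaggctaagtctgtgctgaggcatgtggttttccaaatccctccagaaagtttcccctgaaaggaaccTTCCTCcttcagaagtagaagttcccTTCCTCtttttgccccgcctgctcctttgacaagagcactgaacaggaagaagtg

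*Clec7a* was the most abundant of the 8 transcripts per length at each phase, and *Clec4e* the least abundant. In the authors' FPKM, which corrects counts for gene length and depth, the mean level at Pre was 9.8 ± 2.08 (SD, n = 3) for *Clec7a*, 3.9 ± 0.562 for *Tlr4*, 3.87 ± 1.45 for *Tlr2*, 3.22 ± 0.432 for *Card9*, 2.39 ± 1.39 for *Clec4d*, 0.99 ± 0.856 for *Clec4n*, 0.39 ± 0.0829 for *Clec5a* and 0.26 ± 0.308 for *Clec4e*. The ranges of mean ± SD of neighbours in this order overlapped, apart from those of *Clec7a* and *Tlr4*. At WL1 the order of the mean FPKM was *Clec7a* (20.9 ± 7.82), *Clec4d* (6.76 ± 2.65), *Card9* (5.74 ± 2.48), *Tlr4* (5.41 ± 0.598), *Tlr2* (4.41 ± 1.15), *Clec4n* (0.817 ± 0.34), *Clec5a* (0.322 ± 0.0929) and *Clec4e* (0.115 ± 0.0178), and from *Clec4d* to *Tlr2* the neighbours overlapped in the same sense while the rest did not. *Clec4d* thus stood above *Tlr4* at WL1 and below it at Pre, with SDs that overlapped at both phases. At WL2 *Clec7a* was at 7.74 ± 3.77 FPKM, *Clec4d* at 4.36 ± 2.99, *Tlr4* at 3.79 ± 0.308, *Tlr2* at 3.76 ± 0.306, *Card9* at 2.93 ± 0.955, *Clec4n* at 0.723 ± 0.151, *Clec5a* at 0.404 ± 0.0341 and *Clec4e* at 0.141 ± 0.0803. *Clec4e*, *Clec5a* and *Clec4n* were below 1 FPKM on average at each phase.

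One Pre library stood apart from the others. In Pre replicate 2 the summed level of 6 B cell markers was 226 CPM, against 6.25 and 9.73 CPM in the other Pre libraries, 16.7 to 18.5 CPM at WL1 and 13.2 to 22.2 CPM at WL2. The summed level of 8 T cell markers was 52.8 CPM there, against 4.1 to 8.4 CPM in the other 8 libraries. Among the WL2 libraries, replicate 1 was highest in the summed level of 20 macrophage markers, with 5617 CPM against 2782 and 3030 CPM. All 10 adipocyte markers were present, at 20884 to 36719 summed CPM. Of 10 neutrophil markers 1 was at 0 and 4 passed the filter, and their summed level was 5.95 to 12.2 CPM.

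Over the whole group, the first question was whether these genes differed after 1 week of SD, with the earlier Pre phase as the reference. At WL1 against Pre 4 of the 8 genes, *Clec4d*, *Clec7a*, *Card9* and *Tlr4*, were higher in each WL1 library than in each Pre library; 14.7% of all genes tested were higher in this way. 0 of 8 passed the adjusted threshold of 0.05 by edgeR's quasi-likelihood test, which 7.29% of all genes did. The unadjusted p was under 0.05 for 4 of 8, all higher, against 11.6% of all genes. DESeq2 called 3 of 8 (*Clec4d*, *Clec7a* and *Tlr4*), against 14.4% of the genes it tested, and limma on log2(FPKM + 1) called 0. At WL2 against Pre 0 of 8 passed by edgeR, against 10.0% of all genes, and the unadjusted p was under 0.05 for 0 of 8, against 26.0% of all genes; DESeq2 and limma also called 0. At WL2 against WL1 1 of 8 passed (*Clec7a*, lower), against 3.68% of all genes. *Clec7a*, *Card9* and *Tlr4* were lower in each WL2 library than in each WL1 library, which held for 16.4% of all genes. The transient change, which is WL1 minus the mean of Pre and WL2, passed for 2 of 8 (*Clec7a* and *Tlr4*, higher), against 4.58% of all genes, of which 2.81% were higher. Median log2 fold changes of the 8 genes were 0.35 at WL1 against Pre, -0.09 at WL2 against Pre and -0.39 at WL2 against WL1, where those of all genes were 0.02, 0.01 and -0.00. The 3 pairwise comparisons share libraries and are not independent of each other. Without Pre replicate 2 these counts were 0, 0, 1 and 2 in the same order, and those of all genes 986, 1534, 1102 and 1066. Without WL2 replicate 1 they were 1, 0, 3 and 4, and those of all genes 1500, 1385, 1351 and 1335. Without WL1 replicate 3 they were 0, 0, 0 and 0, and those of all genes 512, 1688, 130 and 24. With all 9 libraries 1350, 1853, 681 and 848 of all genes passed.

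**Figure D1:**
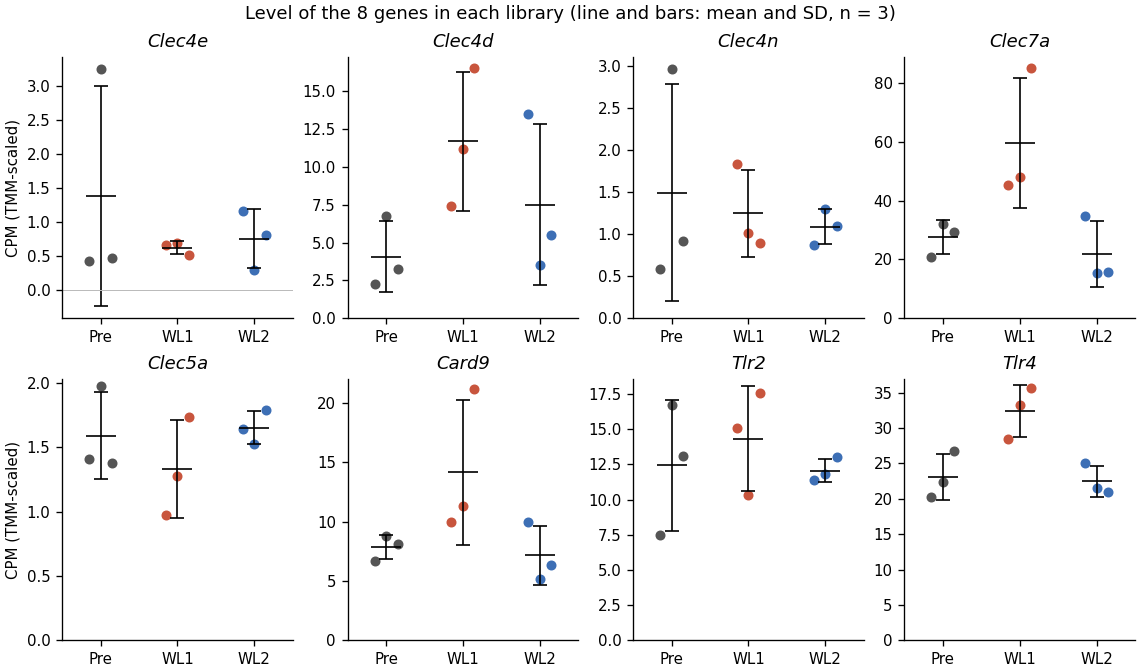
TMM-scaled CPM of the 8 genes in each of the 9 libraries, by phase (points: libraries, horizontal line and bars: mean and SD, n = 3, vertical axes differ between genes). *Clec7a*, *Clec4d*, *Card9* and *Tlr4* lie higher at WL1 than in each Pre library, and *Clec4e* and *Clec4n* have 1 high library, Pre replicate 2, at 3.25 and 2.97 CPM.

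*Clec4e*, which encodes Mincle, was near the limit of detection in these libraries. Its level was 0.413, 3.25 and 0.461 CPM in Pre replicates 1 to 3, 0.651, 0.688 and 0.506 CPM at WL1, and 1.15, 0.283 and 0.81 CPM at WL2. Pre replicate 2 alone was above all other libraries, and the remaining Pre libraries were below each WL1 library. The counts summed to 76 at Pre, of which 59 came from Pre replicate 2, 36 at WL1 and 40 at WL2. The log2 fold change was -1.14 ± 0.79 (SE, adjusted p = 0.407) at WL1 against Pre and -0.87 ± 0.78 (adjusted p = 0.516) at WL2 against Pre. Without Pre replicate 2 both turned to higher values, 0.49 (adjusted p = 0.694) and 0.76 (adjusted p = 0.496). No direction for Mincle was therefore detectable at this depth.

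*Clec4n*, the gene of Dectin-2, which binds fungal mannans, was at 0.589, 2.97 and 0.922 CPM at Pre, 1.84, 1.01 and 0.899 CPM at WL1, and 0.875, 1.3 and 1.1 CPM at WL2. The highest library was again Pre replicate 2, and the phases overlapped. The log2 fold change was -0.26 ± 0.57 (adjusted p = 0.821) at WL1 and -0.45 ± 0.58 (adjusted p = 0.658) at WL2 against Pre, and 0.71 (adjusted p = 0.405) and 0.51 (adjusted p = 0.548) without Pre replicate 2. The library with 226 CPM of B cell markers was thus the highest of all 9 for both *Clec4e* and *Clec4n*, and their part in these 2 values was not tested. 

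*Clec5a*, the gene of MDL-1, a receptor that binds flaviviruses, was at 1.41, 1.98 and 1.38 CPM at Pre, 0.977, 1.28 and 1.74 CPM at WL1, and 1.64, 1.53 and 1.79 CPM at WL2. The phases overlapped in each comparison. Log2 fold changes were -0.26 ± 0.33 (adjusted p = 0.675) at WL1 against Pre, 0.06 ± 0.32 (adjusted p = 0.932) at WL2 against Pre and 0.31 ± 0.33 (adjusted p = 0.652) at WL2 against WL1.

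**Figure D2:**
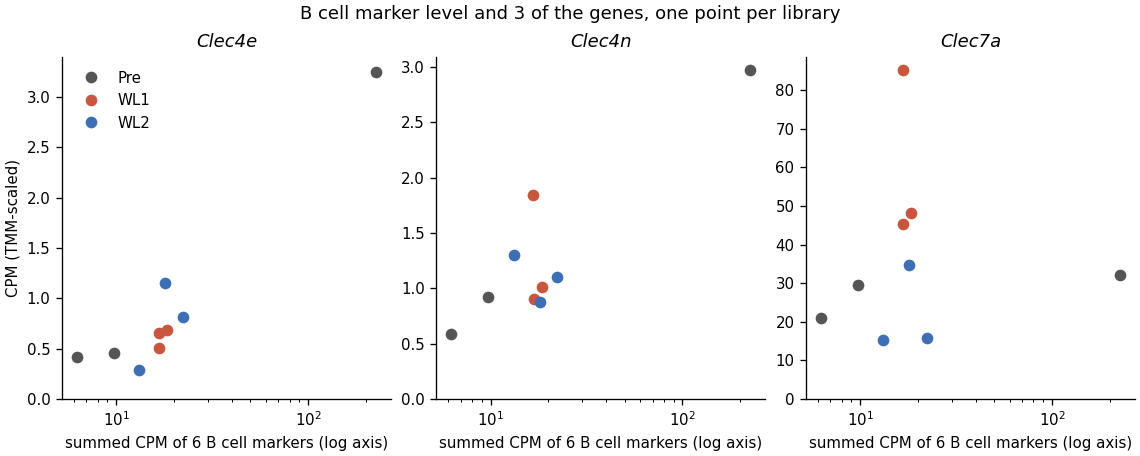
Summed CPM of 6 B cell markers (horizontal, log axis) against the CPM of *Clec4e*, *Clec4n* and *Clec7a* (vertical) in the 9 libraries, coloured by phase. Pre replicate 2, at 226 CPM of B cell markers, is the highest point for *Clec4e* and *Clec4n*. For *Clec7a*, at 32.1 CPM, it is the highest of the Pre libraries, near Pre replicate 3 at 29.4 CPM, and below each WL1 library.

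*Clec4d* encodes MCL, which can pair with Mincle and binds the mycobacterial glycolipid that Mincle binds. Its level was 2.24, 6.72 and 3.23 CPM at Pre, 7.38, 11.2 and 16.5 CPM at WL1, and 13.5, 3.51 and 5.5 CPM at WL2. Each WL1 library was above each Pre library, and WL2 replicate 1 alone among the WL2 libraries stayed within the WL1 range. At WL1 its log2 fold change over Pre was 1.52 ± 0.53, a 2.87-fold higher level, with an unadjusted p of 0.016 and an adjusted p of 0.114 in edgeR. DESeq2 gave 1.51 with an adjusted p of 0.0243. Without Pre replicate 2 the edgeR value was 2.08 (adjusted p = 0.0648). At WL2 against Pre the log2 fold change was 0.88 ± 0.53 (adjusted p = 0.319), which fell to 0.15 (adjusted p = 0.87) without WL2 replicate 1. At WL2 against WL1 it was -0.64 ± 0.51 (adjusted p = 0.535), and -1.37 (adjusted p = 0.129) without that library. *Clec4d* and *Clec4e*, whose genes lie 6524 bases apart, had a Pearson correlation of 0.34 in log2 CPM over the 9 libraries, which is given as a description.

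*Clec7a*, the gene of Dectin-1, was the 1 gene of the 8 that passed at WL2 against WL1. Its level was 21, 32.1 and 29.4 CPM at Pre, 45.3, 48.2 and 85.1 CPM at WL1, and 34.7, 15.3 and 15.7 CPM at WL2. All WL1 libraries were above all Pre and WL2 libraries, and WL2 replicate 1 was the only WL2 library above the highest Pre library. At WL1 against Pre *Clec7a* was 2.16-fold higher, a log2 fold change of 1.11 ± 0.34 that did not pass (adjusted p = 0.0775). By WL2 it had fallen to 0.368 times the WL1 level, a log2 fold change of -1.44 ± 0.35 (adjusted p = 0.0494). The transient change was 1.28 ± 0.28 on the log2 scale (adjusted p = 0.037 in edgeR). At WL2 against Pre the log2 fold change was -0.33 ± 0.34 (adjusted p = 0.578).

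The calls of *Clec7a* were close to the threshold. The change at WL2 against WL1 did not pass without Pre replicate 3 (-1.44, adjusted p = 0.0691), without WL1 replicate 1 (-1.60, 0.0641), 2 (-1.57, 0.0869) or 3 (-1.08, 0.172), or without WL2 replicate 2 (-1.24, 0.214) or 3 (-1.25, 0.176). Without WL2 replicate 1, the library with the highest macrophage marker level of its phase, it was -1.94 (adjusted p = 0.00853), and the change at WL1 against Pre passed as well (1.11, adjusted p = 0.0252). The transient change did not pass without Pre replicate 1 or 3, without any of the WL1 libraries or without WL2 replicate 2 or 3, with values of 0.92 to 1.44 and adjusted p from 0.0549 to 0.2. The direction was higher at WL1 in each of these fits.

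*Card9* encodes the adaptor that joins *Syk* to *Bcl10* and *Malt1*. It was at 6.72, 8.76 and 8.12 CPM at Pre, 10, 11.3 and 21.2 CPM at WL1, and 9.96, 5.21 and 6.37 CPM at WL2. Each WL1 library was above each library of the other phases, by a small margin for WL1 replicate 1 over WL2 replicate 1. Log2 fold changes were 0.85 ± 0.31 (adjusted p = 0.128) at WL1 against Pre, -0.98 ± 0.31 (adjusted p = 0.104) at WL2 against WL1 and 0.92 ± 0.26 (adjusted p = 0.0735) for the transient change. Without WL2 replicate 1 the change at WL2 against WL1 was -1.29 (adjusted p = 0.0427) and the transient change 1.07 (adjusted p = 0.0291). Without WL1 replicate 3, the highest library at 21.2 CPM, these were -0.56 (adjusted p = 0.358) and 0.50 (adjusted p = 0.377). The change at WL1 against Pre was then 0.43 (adjusted p = 0.393).

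*Tlr4*, the lipopolysaccharide receptor, had the smallest standard errors of the 8 genes. Its level was 20.2, 22.4 and 26.7 CPM at Pre, 28.5, 33.2 and 35.7 CPM at WL1, and 25, 21.5 and 20.9 CPM at WL2. All WL1 libraries were above all libraries of Pre and WL2. The level at WL1 was 1.41-fold that at Pre, a log2 fold change of 0.49 ± 0.14 (adjusted p = 0.0633), and changed by -0.53 ± 0.14 (adjusted p = 0.0651) from WL1 to WL2. The transient change was 0.51 ± 0.12 and passed (adjusted p = 0.0417, edgeR). It did not pass without Pre replicate 1 (0.47, adjusted p = 0.0756), WL1 replicate 1 (0.60, 0.0613), 2 (0.50, 0.119) or 3 (0.43, 0.218), or WL2 replicate 2 (0.50, 0.105) or 3 (0.49, 0.0965). At WL2 against Pre the log2 fold change was -0.04 ± 0.14 (adjusted p = 0.882).

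*Tlr2*, the receptor for bacterial lipopeptides, overlapped between the phases in each comparison. It was at 7.49, 16.7 and 13.1 CPM at Pre, 15.1, 10.3 and 17.6 CPM at WL1, and 11.4, 11.8 and 13 CPM at WL2. Log2 fold changes were 0.20 ± 0.27 (adjusted p = 0.692), -0.04 ± 0.27 (adjusted p = 0.937) and -0.24 ± 0.27 (adjusted p = 0.675) at WL1 against Pre, WL2 against Pre and WL2 against WL1.

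**Figure D3:**
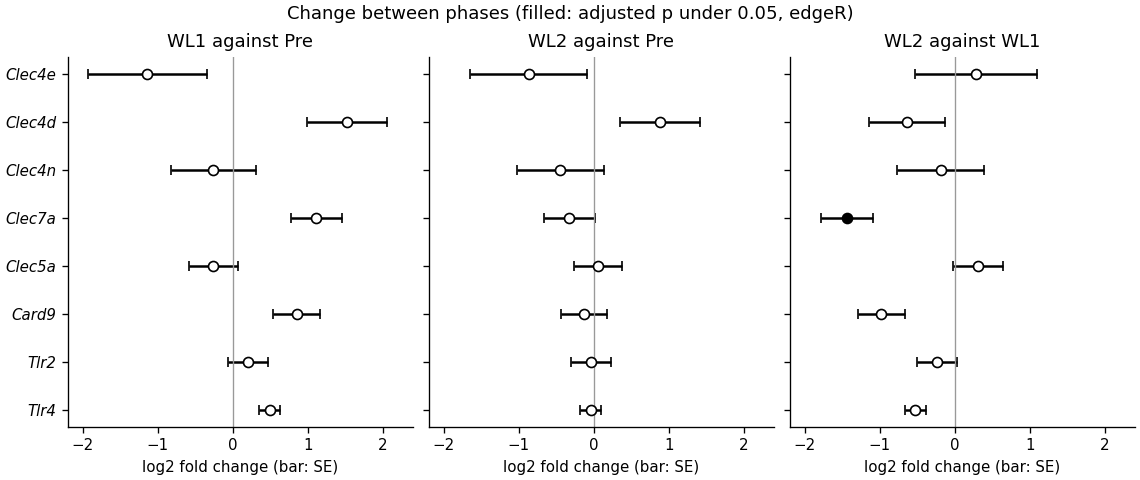
Log2 fold change (horizontal, points) with its standard error (bars) for the 8 genes (vertical) in 3 comparisons, filled where the edgeR adjusted p was under 0.05. *Clec7a* at WL2 against WL1, at -1.44, is the 1 filled point, and the bars of *Clec4e* and *Clec4n* are among the widest.

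In bulk tissue, more cells of a type and more RNA per cell cannot be told apart. The 20 macrophage markers summed to 2575 to 4672 CPM at Pre, 5086 to 9881 CPM at WL1 and 2782 to 5617 CPM at WL2. None of the 20 was at 0 over all 9 libraries together. At WL1 against Pre 14 of the 20 were higher by sign and 2 passed, *Msr1* (log2 fold change 1.56, adjusted p = 0.0403) and *Ms4a7* (1.39, adjusted p = 0.0388), with a median of 0.64. At WL2 against WL1 16 of 20 were lower by sign and 0 passed by edgeR, with an unadjusted p under 0.05 for 11 lower and 2 higher and a median of -0.76. Of all genes 2.60% passed as higher at WL1 against Pre and 2.37% as lower at WL2 against WL1. The macrophage markers thus moved in the same direction as *Clec7a*, *Card9* and *Tlr4*, and each gene was also expressed as its log2 CPM minus the mean log2 CPM of the 20 markers. Differences between phases in this relative level were tested with an exact permutation test over the 280 divisions of the libraries into 3 groups of 3 (one-sided, smallest possible p 0.00357, 8 genes, p-values not adjusted).

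Relative to the 20 macrophage markers, *Clec7a* differed between the phases, and the differences of *Tlr4* and *Card9* were smaller. *Clec7a* stood at -1.08, -1.30 and -1.26 in the Pre libraries, -0.88, -0.81 and -0.54 at WL1 and -1.22, -1.79 and -1.88 at WL2. The WL1 libraries were the highest, with differences of phase means of 0.47 for WL1 minus Pre and -0.88 for WL2 minus WL1 (exact permutation p = 0.0107). Without WL1 replicate 3 the exact p was 0.0536. With *Adgre1*, *Cd68* and *Csf1r* alone as the macrophage genes, WL1 minus Pre was -0.09 for *Clec7a* (exact permutation p = 0.0321 over the 3 phases), so that its rise over Pre depended on the markers chosen. Against these 3 genes the order of sizes also changed, with WL1 minus Pre at -0.67 for *Tlr4* (exact permutation p = 0.211) and -0.40 for *Card9* (exact permutation p = 0.0964). Against the 20 markers, WL1 minus Pre was -0.11 and WL2 minus WL1 was 0.07 for *Tlr4* (exact permutation p = 0.864). For *Card9* they were 0.16 and -0.33 (exact permutation p = 0.261).

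*Clec5a* was lowest at WL1 in this relative measure. Relative to the 20 markers it stood at -4.78, -5.18 and -5.47 at Pre, -6.14, -5.82 and -5.99 at WL1 and -5.45, -4.94 and -4.86 at WL2, so that each WL1 library was below all others. WL1 minus Pre was -0.84 and WL2 minus WL1 0.90 (exact permutation p = 0.0393), where its own CPM had overlapped between the phases. Its own log2 fold changes were -0.26 and 0.31. The mean log2 CPM of the markers was 5.49 to 6.32 at Pre, 6.39 to 6.96 at WL1 and 5.74 to 6.35 at WL2. A gene of unchanged level falls in this measure where the markers rise, so the test does not show a change of *Clec5a* itself. Without Pre replicate 2 the exact p was 0.0643, and it was 0.121, 0.05 and 0.0821 without WL1 replicates 1 to 3, and 0.0607 and 0.0536 without WL2 replicates 2 and 3. *Clec4d* gave 0.94 for WL1 minus Pre (exact permutation p = 0.104), *Clec4e* -1.06 (0.325), *Clec4n* -0.62 (0.543) and *Tlr2* -0.36 (0.275). Without Pre replicate 2 the value was -0.43 for *Clec4e* and -0.21 for *Clec4n*.

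**Figure D4:**
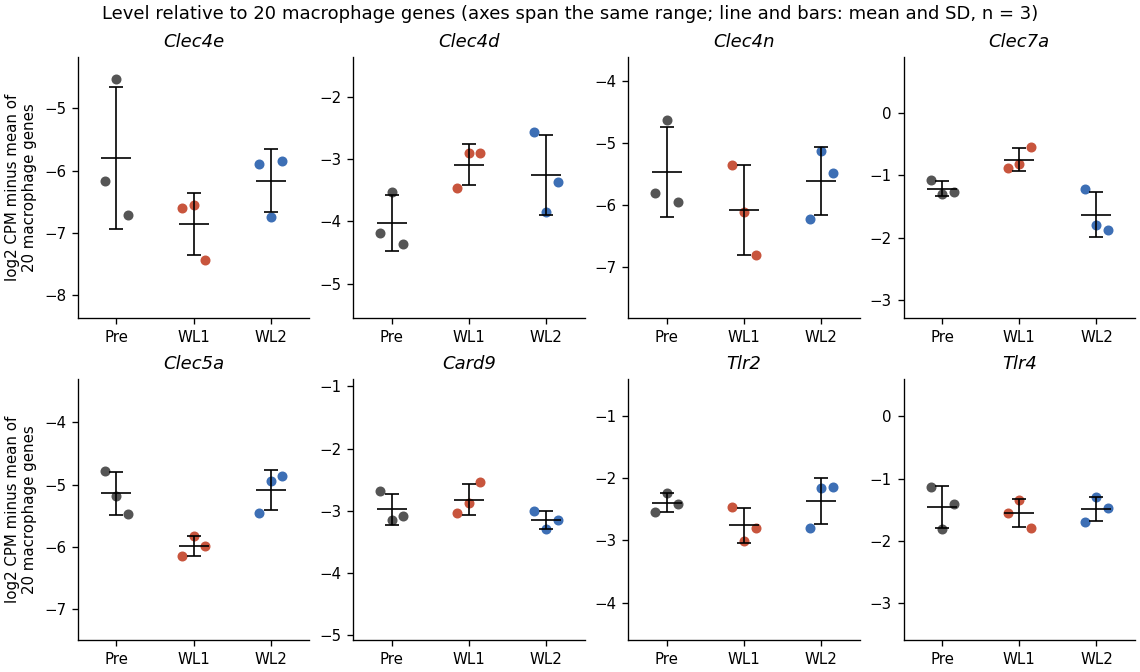
Log2 CPM of each gene minus the mean log2 CPM of 20 macrophage genes (vertical) in the 9 libraries by phase (points: libraries, line and bars: mean and SD, n = 3, all vertical axes span the same range). *Clec7a* is highest at WL1, from -0.88 to -0.54, *Clec5a* is lowest there, from -6.14 to -5.82, and the libraries of *Tlr4* overlap between the phases.

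The partners of the C-type lectin receptors were the next group. *Tyrobp* (DAP12) was at 88.5 ± 21.9 CPM at Pre, 229 ± 87.9 CPM at WL1 and 106 ± 67.1 CPM at WL2 (SD, n = 3), with log2 fold changes of 1.37 (adjusted p = 0.0711) at WL1 against Pre and -1.11 (adjusted p = 0.147) at WL2 against WL1. *Fcer1g* was at 71.3 ± 21.3, 130 ± 38.6 and 68.5 ± 27.2 CPM, and *Syk* at 115 ± 41.5, 240 ± 76 and 106 ± 42.6 CPM. Their log2 fold changes at WL1 against Pre, 0.87 (adjusted p = 0.121) and 1.06 (adjusted p = 0.087), did not pass. *Bcl10* was at 42.5 ± 4.34, 44.2 ± 5.28 and 37.5 ± 2.19 CPM. *Malt1*, the protease of the *Card9* complex, was at 59.2, 46.1 and 62.1 CPM at Pre and 37.1, 35 and 38.2 CPM at WL2, without overlap, and fell by 0.60 on the log2 scale (adjusted p = 0.02), a call that was lost without Pre replicate 1 or 3 or any WL2 library (-0.72 to -0.52 over the 9 left-out libraries). Of the 12 adaptors and members of the *Syk* and *Card9* pathway, 0 passed at WL1 against Pre in edgeR (unadjusted p under 0.05 for 5 higher and 2 lower), 2 fell at WL2 against Pre (*Malt1* and *Ptpn11*, -0.45, adjusted p = 0.0363, lost in 8 of the 9 fits without 1 library, that without WL2 replicate 3 excepted) and 1 fell at WL2 against WL1 (*Prkcd*, the kinase that phosphorylates *Card9*, -1.09, adjusted p = 0.0333, lost without WL1 or WL2 replicate 2 or 3). Their medians were 0.47, -0.33 and -0.93.

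*Tlr1* and *Tlr6*, the partners of *Tlr2*, were highest at WL1. *Tlr1* was at 5.78, 11.2 and 9.5 CPM at Pre, 15, 11.7 and 19.4 CPM at WL1 and 7.17, 3.57 and 4.57 CPM at WL2, and it fell from WL1 to WL2 (-1.58, adjusted p = 0.0276). *Tlr6* was at 5.42, 5.29 and 5.3 CPM at Pre, 8.52, 9.13 and 10.2 CPM at WL1 and 6.35, 4.13 and 3.65 CPM at WL2. Its log2 fold change was 0.80 (adjusted p = 0.0503) at WL1 against Pre and -0.98 (adjusted p = 0.0382) at WL2 against WL1. Left-out libraries gave -1.91 to -1.36 for *Tlr1* and -1.25 to -0.82 for *Tlr6*; both calls were lost without WL1 replicate 1 or 3 or WL2 replicate 2 or 3, and that of *Tlr6* also without Pre replicate 3 or WL1 replicate 2. The transient change passed for both, with 1.19 (adjusted p = 0.0344) for *Tlr1* and 0.89 (adjusted p = 0.0298) for *Tlr6*, was lost in 7 and 6 of the 9 fits without 1 library, among them those without Pre replicate 1 or any WL1 library, and was 0.22 (adjusted p = 0.648) for *Tlr2*. The difference between *Tlr2* and its partners was not tested.

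Among the partners of *Tlr4*, *Lbp*, which carries lipopolysaccharide to *Cd14*, fell at both phases. It was at 812, 645 and 788 CPM at Pre, 298, 322 and 391 CPM at WL1 and 175, 158 and 186 CPM at WL2. The 3 phases were fully separated, and the level fell by 1.15 on the log2 scale at WL1 (adjusted p = 0.00144) and by 2.11 at WL2 (adjusted p = 2.03e-05) against Pre. Both calls held without each of the 9 libraries in turn. *Cd14* was at 23 ± 9.78, 36.9 ± 15.3 and 25.9 ± 7.05 CPM and *Ly96* at 4.74 ± 0.612, 6.78 ± 1.89 and 5.96 ± 0.964 CPM, and neither passed (adjusted p = 0.271 and 0.208 at WL1 against Pre). *Myd88* was at 31.4 ± 5.89, 34.1 ± 2.59 and 31.3 ± 4.73 CPM (adjusted p = 0.678 at WL1 against Pre). *Cd180*, a relative of *Tlr4* without a signalling domain, rose from 15, 21.3 and 22 CPM at Pre to 55.3, 57.8 and 78.1 CPM at WL1 (log2 fold change 1.71, adjusted p = 0.0171), and was at 36.6, 14.4 and 14 CPM at WL2. Its rise no longer passed without Pre replicate 1 or WL1 replicate 3 (1.53 to 1.81 over the 9 left-out libraries). Of 19 genes in this list 1 rose and 1 fell at WL1 against Pre, and 2 fell at WL2 against Pre, *Lbp* and *Traf3* (-0.68, adjusted p = 0.00976).

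Other Toll-like receptors included 2 that rose at WL1. *Tlr13*, which senses bacterial ribosomal RNA, was at 11.7, 17.5 and 23.2 CPM at Pre, 48.6, 50.5 and 96.4 CPM at WL1 and 42.8, 13.6 and 19 CPM at WL2 (log2 fold change 1.90 at WL1 against Pre, adjusted p = 0.0278). The call was lost without Pre replicate 1 or 2 or WL1 replicate 3 (1.5 to 2.16 over the 9 left-out libraries). *Tlr8*, an endosomal RNA sensor, was at 8.43, 14.3 and 17.7 CPM at Pre, 29.2, 25.8 and 48.6 CPM at WL1 and 15.1, 7.25 and 9.95 CPM at WL2, and it rose at WL1 against Pre (1.35, adjusted p = 0.0391) and fell at WL2 against WL1 (-1.68, adjusted p = 0.0305). The rise was lost without Pre replicate 1 or 2, any WL1 library or WL2 replicate 3 (1.02 to 1.60), and the fall without any WL1 library or WL2 replicate 2 or 3 (-2.00 to -1.34). Of the 11 receptors in this list 2 rose at WL1 against Pre, 0 passed at WL2 against Pre in edgeR (unadjusted p under 0.05 for 3 lower), where *Tlr9* (-1.84, adjusted p = 0.0849) and *Tlr12* (-1.74, adjusted p = 0.21) had the largest differences, both with their highest level in Pre replicate 2, and 3 fell at WL2 against WL1 (*Tlr8*, *Tlr1* and *Tlr6*). *Tlr9* was at 15.5 CPM in Pre replicate 2, the library with the high B cell markers, and at 1.53 to 4.47 CPM in the others, and its log2 fold change without that library was -0.68 (adjusted p = 0.307). *Tlr12* was at 1.43 CPM there and at 0.109 to 0.393 CPM in the others, and was below the filter without it.

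Of the other C-type lectin receptors, *Clec4a2* and *Clec4b1*, which lie in the same region of chromosome 6 as *Clec4n*, were lower at WL2 than at WL1 (-1.43, adjusted p = 0.0433, and -1.38, adjusted p = 0.0331). Both calls were lost without WL1 replicate 2 or 3 or WL2 replicate 2 or 3, and that of *Clec4a2* also without Pre replicate 3 or WL1 replicate 1 (-1.94 to -1.11 and -1.73 to -1.10 over the 9 left-out libraries). *Clec4a2*, an inhibitory receptor, was at 20, 27 and 26 CPM at Pre, 40.5, 43.8 and 72.2 CPM at WL1 and 30.7, 14 and 13.2 CPM at WL2. The receptors *Cd209a*, *Cd209d* and *Mgl2* were lower at WL1 than at Pre. *Cd209a*, a relative of DC-SIGN, was at 10.8, 13.5 and 13.1 CPM at Pre, 6.4, 6.01 and 5.9 CPM at WL1 and 6.62, 8.15 and 9.61 CPM at WL2 (-1.03 at WL1 against Pre, adjusted p = 0.00834), a call that held without each library in turn. *Mgl2*, a galactose-type lectin of tissue macrophages and dendritic cells, fell by 1.01 (adjusted p = 0.0136) and *Cd209d* by 1.16 (adjusted p = 0.0313) on the log2 scale. The call of *Mgl2* was lost without WL1 replicate 3 (-1.18 to -0.81) and that of *Cd209d* without any Pre library or WL1 replicate 2 or 3 (-1.40 to -0.93). Of 25 receptors in this list 23 passed the filter, of which 3 fell and 0 rose at WL1 against Pre, 2 fell at WL2 against Pre (*Cd209a*, -0.62, adjusted p = 0.0479, lost in 8 of the 9 fits without 1 library, and *Mgl2*, -0.86, adjusted p = 0.0193, lost without Pre replicate 3 or any WL2 library) and 2 fell at WL2 against WL1.

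Downstream of the receptors, single genes of NF-kB signalling changed in both directions. *Tnf*, the inflammatory cytokine, was at 1.41, 1.71 and 1.61 CPM at Pre, 3.09, 3.17 and 3.88 CPM at WL1 and 1.26, 1.3 and 1.5 CPM at WL2. It rose at WL1 against Pre (1.09, adjusted p = 0.0297) and fell at WL2 against WL1 (-1.31, adjusted p = 0.026), and the WL1 libraries did not overlap with those of the other phases. The rise was lost without Pre replicate 1 or 3 or any WL1 library (0.97 to 1.15). *Nfkbia*, the inhibitor of NF-kB, was higher at WL2 than at Pre (0.50, adjusted p = 0.0169), as was *Cebpd* (0.89, adjusted p = 0.0204). *Nfkb2* (-0.84, adjusted p = 0.00703), *Nfkbib* (-0.64, adjusted p = 0.00883) and the chemokine *Ccl2* (-1.19, adjusted p = 0.0305) were lower at WL2 than at Pre. *Ccl2* was at -0.76 without Pre replicate 3, and its call was lost without that library or WL2 replicate 2 or 3. The calls at WL2 against Pre were lost without Pre replicate 1 or WL2 replicate 3 for *Nfkbia*, without WL2 replicate 3 for *Cebpd* and without WL2 replicate 2 for *Nfkbib*. Of 24 genes 1 rose at WL1 against Pre, 2 rose and 3 fell at WL2 against Pre, and 2 rose (*Nfkbia* and *Cebpd*) and 1 fell (*Tnf*) at WL2 against WL1, and all 3 of these last calls were lost without any WL1 library or WL2 replicate 2 or 3.

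Of the 14 cytosolic sensors that passed the filter, 0 passed the threshold at WL1 against Pre in edgeR (unadjusted p under 0.05 for 5 higher and 2 lower), where *Nlrc4* (1.26, adjusted p = 0.0601) and *Nlrp1b* (0.91, adjusted p = 0.149) had the largest differences, and *Mavs* fell at WL2 against Pre (-0.37, adjusted p = 0.0394). Among 12 endogenous ligands and related genes, *S100a8*, a calcium-binding protein that *Tlr4* binds, was at 17.6, 11.6 and 16.3 CPM at Pre, 2.22, 2.48 and 3.6 CPM at WL1 and 1.7, 0.0566 and 0.926 CPM at WL2. It fell by 2.46 (adjusted p = 0.0221) and 4.07 (adjusted p = 0.00202) on the log2 scale against Pre. The WL1 call was lost without Pre replicate 1 or 3 or any WL1 library (-2.70 to -2.32), and the WL2 call held without each library. Its partner *S100a9* was at 0.113 to 1.31 CPM over the 9 libraries (0.31, adjusted p = 0.872, at WL1 against Pre). *Sap130*, whose protein is a ligand of Mincle released by dead cells, was at 41.9, 32.2 and 36.9 CPM at Pre and 42.4, 43 and 46.9 CPM at WL1 (0.25, adjusted p = 0.274). *Hmgb1*, a nuclear protein released from dying cells, rose by 0.42 on the log2 scale at WL2 against Pre (adjusted p = 0.0404). The calls of *Mavs* and *Hmgb1* were each lost in 8 of the 9 fits without 1 library, those without WL1 replicate 1 and WL1 replicate 3 excepted in turn.

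Of all 119 genes in these 7 lists 115 passed the filter. At WL1 against Pre 4 rose and 5 fell (all genes: 2.60% and 4.69%), at WL2 against Pre 3 rose and 12 fell (3.35% and 6.66%), and at WL2 against WL1 2 rose and 10 fell (1.31% and 2.37%). With library totals in place of TMM factors, which moved the median of all genes to 0.12 at WL1 against Pre, the split there was 13 higher and 5 lower. Medians of the 115 genes were 0.22, -0.07 and -0.40. Of the 12 calls at WL2 against WL1, 0 held without each of the 9 libraries in turn, against 2 of 9 at WL1 against Pre and 4 of 15 at WL2 against Pre. The transient change passed for 9 higher and 2 lower, of which 0 of 11 held. It passed for 4.58% of all genes, with 2.81% higher. Without WL2 replicate 1 the number of calls at WL2 against WL1 was 25, and without WL2 replicate 2 it was 0. The calls of all genes moved as well, from 681 with all 9 libraries to 1351 and 37. For the transient change they went from 848 to 11 without WL1 replicate 1. Without Pre replicate 2 the counts of list genes were 7 at WL1 against Pre, 10 at WL2 against Pre and 18 at WL2 against WL1. Those of all genes were then 986, 1534 and 1102.

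**Figure D5:**
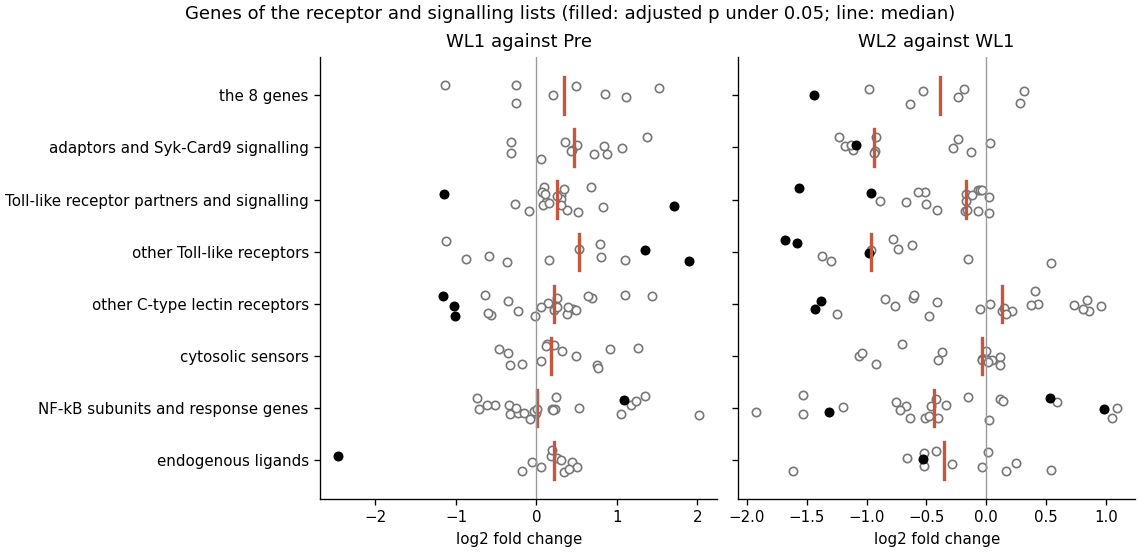
Log2 fold changes (horizontal) of the 8 genes and of the tested genes of 7 lists (vertical, 1 point per gene, filled where the edgeR adjusted p was under 0.05, red line: median) at WL1 against Pre and WL2 against WL1. Filled points at WL1 against Pre lie on both sides of 0, 4 higher and 5 lower over the 7 lists, and the leftmost is *S100a8* at -2.46.

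The genes with the most similar course over the 9 libraries were found by Pearson correlation of log2 CPM among 14637 genes with a mean of at least 1 CPM. For *Clec7a* these were *Clec4a2* (r = 0.997), *Psap* (0.995) and *Arhgap39* (0.995), and for *Card9* they were *Zc3h12a* (0.987), *Skap2* (0.984) and *Galc* (0.984). *Clec4d* was nearest to *Galnt12* (0.978), *Eno2* (0.971) and *Plaur* (0.970), and *Tlr4* to *Tpm3* (0.987), *Nhs* (0.980) and *Sirpb1c* (0.980). *Clec4e*, with its high value in Pre replicate 2, was nearest to *Tuba4a* (0.949), *H2-Eb2* (0.935) and *Kdelr1* (0.932). *Clec4n* was nearest to *Prkar1a* (0.958), *Pml* (0.949) and *Osbpl7* (0.945), *Clec5a* to *9430085M18Rik* (0.939), *Trim35* (0.937) and *Tmem218* (0.937), and *Tlr2* to *Abca9* (0.973), *Axin1* (0.957) and *Rp2* (0.946). Among the 8 genes themselves, *Clec7a* and *Card9* (0.97), *Clec7a* and *Tlr4* (0.91) and *Card9* and *Tlr4* (0.88) were the most alike, and *Clec5a* and *Tlr4* (-0.30) the least. The 9 libraries share phase and cell content, and these values describe the libraries with no test.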

How the data were processed

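RNA sequencing of epididymal adipose tissue gave 9 libraries, 3 per phase, grouped by the sample labels. The authors deposited raw counts per gene, with a second table of FPKM. The submitters' processing notes name CASAVA, TopHat2, HISAT, HISAT2, GRCm38 and mm10 without a role; the counting program, its strand setting and the annotation were not given in the sources used here. Of the 8 genes, 0 had the coordinates of GENCODE M21 on GRCm38, so coordinates from the table carry no build. Columns of no sample numbered 0. Members and lists were chosen with earlier results of these data known.

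Genes reaching 0.5 CPM in 1 or more libraries entered the tests (R 4.3.3, edgeR 4.0.16: glmQLFit and glmQLFTest with TMM in 1 model of 9 libraries, common dispersion 0.0478). P-values received a Benjamini-Hochberg adjustment over the 18510 genes, with a threshold of 0.05. Log2 CPM used a prior count of 4. The script was tested on simulated data. The text names the 8 genes, 10 partners, up to 5 genes per list and comparison that passed, the 2 largest changes where none passed, and 3 genes of similar course per member; *Sap130* and *S100a9* were added with their values known, and 1 gene that the rule names is not reported here. Alternatives were no filter, 0.5 CPM in 3 libraries, DESeq2 1.42.0, relative log expression factors, library totals, the 2 compared phases alone, the replicate number as a block, limma 3.58.1 on log2(FPKM + 1) and log2(FPKM + 0.1), and leaving out each library. Counts of libraries within a phase differed beyond sampling noise (chi-square over its degrees of freedom 9.88 to 53.8), and none held identical values. A gene near 0.5 CPM rests on few reads, and its change is measured with wide counting error.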

Additional observations from a re-analysis of the deposited data

How the results depend on the processing

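Of the log2 fold changes of the 8 genes under the alternatives, 492 kept direction and side of the threshold, 21 newly passed, 29 no longer passed and 26 turned direction; the cause was not tested. The number of the 8 genes past the threshold at WL1 against Pre (0) was 2 without a filter, 3 in DESeq2 and 2 with library totals, and 0 to 1 leaving out 1 library. Of all genes 1350 passed there with the main settings, 1861 without a filter, 2344 in DESeq2 and 1645 with library totals. At WL2 against Pre it was 0 to 0 leaving out 1 library. At WL2 against WL1 (1) it was 3 without a filter, 3 in DESeq2, 0 with the replicate block, 0 with limma on log2(FPKM + 1) or log2(FPKM + 0.1), and 0 to 3 leaving out 1 library. All genes called there numbered 681 with the main settings, 1668 without a filter and 1935 in DESeq2. They numbered 330 with the block and 537 and 546 with the limma fits. The transient change (2) gave 4 without a filter, 0 with the replicate block, 0 with both limma fits and 0 to 4 leaving out 1 library. For it all genes numbered 848 with the main settings, 1496 without a filter, 1949 in DESeq2, 272 with the block and 521 and 445 with limma. Of the lists' genes, 9 at WL1 against Pre became 22 without a filter, 22 in DESeq2, 18 with library totals, 14 with 2 phases and 3 to 16 leaving out 1 library; 15 at WL2 against Pre became 9 with 2 phases, 9 with the block and 6 to 12; 12 at WL2 against WL1 became 30, 27 and 2 without a filter, in DESeq2 and with the block, and 0 to 25; and the transient 11 became 32, 28, 3, 6 and 6 without a filter, in DESeq2, with the block and with the limma fits, and 0 to 21. With 2 phases 992 of all genes passed at WL1 against Pre. At WL2 against Pre all genes numbered 1853 with the main settings, 1314 with 2 phases and 1399 with the block. Relative to macrophage markers, 0 to 2 genes passed leaving out 1 library. The replicate number is shared by name alone: same-numbered libraries correlated at -0.277 to 0.107 in their deviations from the phase means.

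With library totals, WL2 against Pre became 0.01 for *Card9*, 0.11 for *Tlr2* and 0.11 for *Tlr4*; with the limma fits it became 0.01 and 0.03 for *Tlr2*. The transient change of *Clec4n* became 0.09 with the replicate block and 0.04 with limma on log2(FPKM + 0.1). Relative to macrophage markers, WL1 minus Pre became -0.09 for *Clec7a* and -0.40 for *Card9* with 3 marker genes. Leaving out 1 library also turned some directions. At WL1 against Pre the values ran from -1.57 to 0.49 for *Clec4e*, -0.64 to 0.71 for *Clec4n* and -0.06 to 0.47 for *Tlr2*. At WL2 against Pre they ran from -1.32 to 0.76 for *Clec4e*, -0.82 to 0.51 for *Clec4n*, -0.04 to 0.24 for *Clec5a*, -0.44 to 0.05 for *Card9*, -0.30 to 0.22 for *Tlr2* and -0.13 to 0.08 for *Tlr4*. Values at WL2 against WL1 ran from -0.17 to 0.66 for *Clec4e* and -0.36 to 0.19 for *Clec4n*, for the transient change from -0.92 to 0.10 and -0.42 to 0.45, and for *Tlr4* relative to macrophage markers from -0.29 to 0.05.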

Other observations

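Of 12 markers of lipid-associated macrophages, the lipid-laden cells of obese adipose tissue, 11 were higher by sign at WL1 than at Pre and 6 of them passed in edgeR, against 2.60% of all genes, with a median log2 fold change of 1.47. Their summed level overlapped between the phases, with 16145, 6903 and 15893 CPM at Pre and 13962, 14615 and 19711 CPM at WL1. Without 1 library 0 to 10 passed as higher, 0 without Pre replicate 1, Pre replicate 2 or WL1 replicate 3 and 10 without WL2 replicate 1. From WL1 to WL2 12 of 12 were lower by sign and 1 passed, against 2.37% of all genes, with a median of -1.13, and 11 passed without WL2 replicate 1. Of 8 monocyte markers 7 were lower by sign at WL1 and 8 at WL2 than at Pre, with medians of -0.83 and -1.18. As lower, 0 and 1 of them passed, against 4.69% and 6.66% of all genes. From WL1 to WL2 the signs were mixed, 3 higher and 5 lower, with a median of -0.22. There 1 passed as lower, against 2.37% of all genes. The summed level overlapped between the phases, at 884 to 1668 CPM at Pre, 842 to 1329 at WL1 and 748 to 1104 at WL2. *Ccr2*, the chemokine receptor of monocytes and the receptor for *Ccl2*, was lower at WL2 than at Pre (-1.20, adjusted p = 0.00148) and than at WL1 (-0.85, adjusted p = 0.026). All 10 adipocyte markers were lower by sign at WL1 against Pre, of which 3 passed, against 4.69% of all genes, with a median of -0.46. At WL2 against Pre 5 were higher and 5 lower by sign, with a median of 0.08. From WL1 to WL2 9 were higher and 1 lower, with a median of 0.46.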
